A study of Arabidopsis thaliana with 4 samples.

Results

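The comparison described here sets Arabidopsis thaliana carrying a phr1 mutation against the wild type Col-0, both grown without phosphate. The genes compared were all those with an FPKM of at least 1 in either library, 20323 of the 33557 genes in the deposited table. FPKM counts sequenced fragments relative to the length of the transcript and the size of the library. The study holds 4 libraries, 1 each of phr1, Col-0, hho2phr1 and hho2-1, all in the Col-0 ecotype and all kept for 7 days on vertical agar plates of MS medium lacking phosphate. The labels describe phr1 and hho2-1 as T-DNA insertion lines from the SALK collection and hho2phr1 as the mutant that combines them. Which organ was harvested, how many plants went into a library and where the insertions lie is not in the labels. No library was grown with phosphate, so every value below is a level under starvation.

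PHR1 is a MYB-related transcription factor that binds a short palindromic DNA element, P1BS, near genes of the phosphate starvation response. When phosphate is ample, SPX proteins loaded with inositol pyrophosphates hold PHR1 off DNA, and when it is scarce PHR1 is released. Its known targets include SPX genes themselves, the noncoding RNA IPS1, phosphate transporters, acid phosphatases and enzymes that replace phospholipids with sulfolipids and galactolipids. PHR1 has relatives, the PHL proteins, that bind the same element and share part of its work.

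PHR1 (AT4G28610) itself stood at 7.54 FPKM in phr1 and 37.7 in Col-0, and at 6.50 in hho2phr1 and 43.2 in hho2-1. Both libraries with the phr1 allele were thus low and both with an intact PHR1 high, in keeping with their labels, and a remainder of PHR1 fragments was counted in each mutant. The 4 relatives in the list, PHL1 to PHL4, differed by between -0.16 and 0.16 on the scale of log2(FPKM + 1), which is the scale of every difference given below, phr1 minus Col-0. PHL1 stood at 13.5 FPKM in phr1 and 11.99 in Col-0, and PHL2 at 29.6 and 30.5 in the same order of libraries.

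The library sizes behind the FPKM values were read from the steps between low values. They were about 39500000 fragments in phr1, 48100000 in Col-0, 40700000 in hho2phr1 and 45000000 in hho2-1. The scaling between libraries is not given, so these sizes may differ from the sequenced depth. At these sizes, 1 fragment on a transcript of 1 kilobase is worth 0.0253 FPKM in phr1 and 0.0208 FPKM in Col-0. A metallothionein gene, MT1A, took 17.2% of all FPKM in phr1 and 13.1% in Col-0. Its interval is shared with another gene and its transcript has 138 nucleotides, so these are not shares of RNA. Photosynthesis transcripts summed to 18218 FPKM in phr1 and 19516 in Col-0 over 21 marker genes, and 19 root markers summed to 5548 and 6619 FPKM in these libraries, with none of either list at 0 in any library. Most of the root sum was BGLU23, on a shared interval, at 4533 FPKM in phr1 and 5607 in Col-0. The difference of the root sums thus rests on that gene. Green tissue and root RNA were therefore both present. In bulk RNA of this kind, fewer cells of a type and less RNA per cell cannot be told apart.

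With 1 library per genotype there is no replicate error, no p-value and no test. A gene was counted as 2-fold different when its log2(FPKM + 1) differed by at least 1 in either direction, and a stricter count also asked that the authors' 95% intervals for phr1 and Col-0 did not overlap. How the authors' tool set the width of those intervals is not given in the sources used here. With 1 library per genotype they cannot measure variation between plants of a genotype. Of the 20323 genes, 157 were 2-fold higher in phr1 (0.773%) and 117 were 2-fold lower (0.576%). Together these were 274 genes (1.35%). The stricter rule left 86 genes on the higher side (0.423%) and 44 on the lower side (0.217%), 130 in all (0.64%). Regardless of size, 49.5% of the genes were above and 50.5% below 0. Taking all 4 libraries, phr1 and hho2phr1 both lay below Col-0 and hho2-1 for 23.7% of the genes and both lay above them for 23.5%, so that this order alone is common at any size of difference. Among genes already chosen as lower or higher in phr1 than in Col-0 these shares are larger, since part of the order is then fixed. The median difference was -0.002, and the middle 95% of genes lay between -0.45 and 0.54. Among 2680 genes with a mean below 3 FPKM, 54 were 2-fold higher and 56 lower, but only 24 and 16 of these had intervals apart. Among 1629 genes with a mean of at least 100 FPKM, 2 were higher and 5 lower. At the FPKM limit of the selection, HDG11 (0.875 FPKM in phr1, 1.00 in Col-0) was among the last genes inside and MEF19 (0.999 and 0.738) among the first outside.

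**Figure D1:**
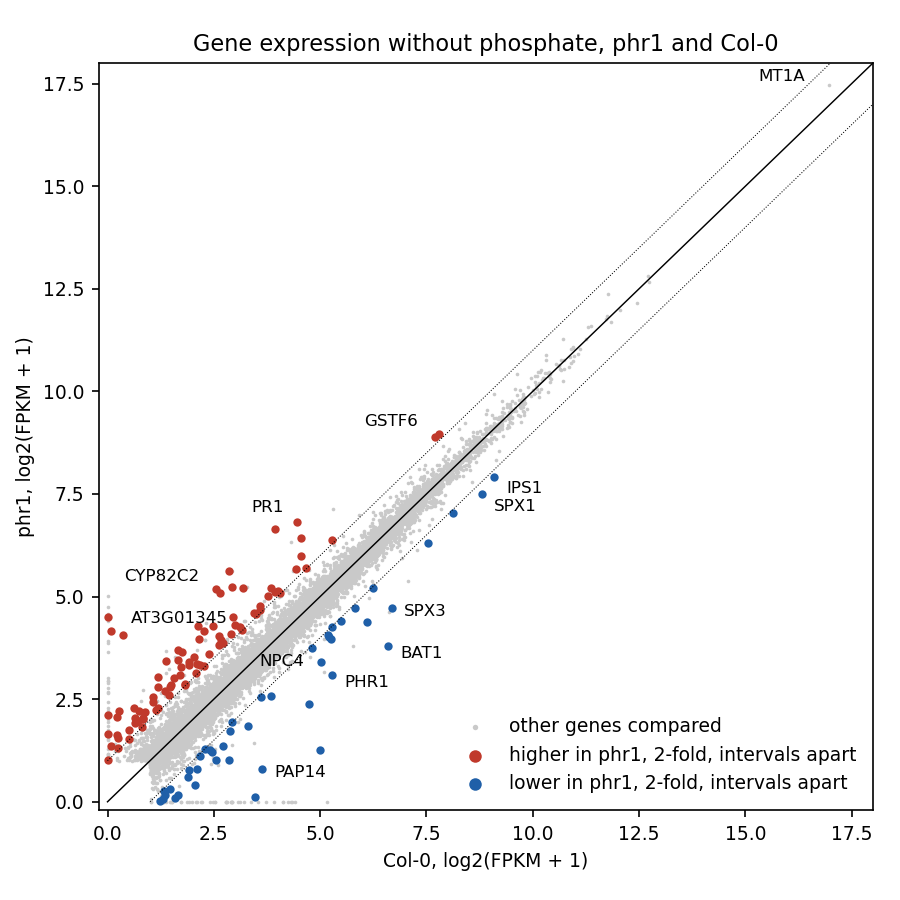
Each point is 1 of the 20323 genes, with its log2(FPKM + 1) in Col-0 on the horizontal axis and in phr1 on the vertical axis. The solid line marks equal levels and the dotted lines a difference of 1. Red points are the 86 genes higher and blue points the 44 genes lower in phr1 with intervals apart. Most genes lie along the line, and the points at 0 on either axis are mostly grey.

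The lower genes included many of the phosphate starvation response. Of 95 compared members of 6 lists (SPX proteins with ubiquitin ligases and noncoding RNAs, phosphate transporters, glycerol-3-phosphate permeases, purple acid phosphatases, other phosphatases with ribonucleases, and membrane lipid remodelling), 75 were below and 20 above Col-0, and their median was -0.21, against -0.002 for all genes. There were 18 members 2-fold lower (background 0.576%) and 0 higher (background 0.773%), and 15 of the 18 had intervals apart (background 0.217%). The other 3 are microRNA precursors shorter than 200 nucleotides. When any size of difference was counted, 21 of the 95 had intervals apart and lower (background 0.408%) and 0 had intervals apart and higher (background 0.841%). The lists hold genes known to answer to phosphate and were chosen with earlier results of these libraries known, so their direction is a description.

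Several of these lower genes carry the P1BS element close to their start. It was searched as GNATATNC, where N is any base, a pattern that reads the same on both strands, in the window from 250 bases before to 50 bases after the RefSeq gene start. The 250 bases before the start are shown here for 8 phosphate genes that were 2-fold lower with intervals apart, and for AT5G17340, a gene in no list with one of the lowest differences, because they let the element be seen in place. RefSeq starts often differ from those in the authors' table: 3519 of 20242 were the same, 17927 lay within 250 bases, and the median distance was 72 bases. For PHT1;7 the RefSeq start lies further upstream, so that its element begins 1002 bases before the start in the authors' table. The sequences are from the RefSeq build TAIR10.1, 5′ to 3′ on the strand of the gene, with each match to the element in capitals.
SPX3 (chr2:18606160-18606409, plus strand): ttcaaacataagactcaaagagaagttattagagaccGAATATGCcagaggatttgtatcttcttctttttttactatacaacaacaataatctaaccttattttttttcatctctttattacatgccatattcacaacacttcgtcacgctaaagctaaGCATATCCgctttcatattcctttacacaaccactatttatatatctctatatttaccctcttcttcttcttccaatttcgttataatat
PAP14 (chr2:19266457-19266706, minus strand): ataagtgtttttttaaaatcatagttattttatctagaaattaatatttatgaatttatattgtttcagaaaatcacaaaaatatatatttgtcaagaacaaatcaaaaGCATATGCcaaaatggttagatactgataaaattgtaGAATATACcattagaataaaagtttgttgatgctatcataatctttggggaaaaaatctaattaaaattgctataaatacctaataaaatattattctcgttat
PAP23 (chr4:7958920-7959169, minus strand): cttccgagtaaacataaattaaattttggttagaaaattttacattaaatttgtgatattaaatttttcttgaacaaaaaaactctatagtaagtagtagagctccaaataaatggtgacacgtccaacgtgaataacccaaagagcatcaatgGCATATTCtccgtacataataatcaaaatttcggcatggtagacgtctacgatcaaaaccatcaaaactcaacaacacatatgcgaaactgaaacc
PAP24 (chr4:12814457-12814706, minus strand): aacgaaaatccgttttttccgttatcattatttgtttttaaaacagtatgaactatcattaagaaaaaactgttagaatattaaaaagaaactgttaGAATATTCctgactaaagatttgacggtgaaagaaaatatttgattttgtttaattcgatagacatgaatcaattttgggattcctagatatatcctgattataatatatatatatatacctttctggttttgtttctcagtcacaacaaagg
NPC4 (chr3:845097-845346, minus strand): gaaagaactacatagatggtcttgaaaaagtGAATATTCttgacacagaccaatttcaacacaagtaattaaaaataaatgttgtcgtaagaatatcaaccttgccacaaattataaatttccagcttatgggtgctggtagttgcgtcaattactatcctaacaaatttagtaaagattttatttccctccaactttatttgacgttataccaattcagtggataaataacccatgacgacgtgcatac
GDPD6 (chr5:2576820-2577069, minus strand): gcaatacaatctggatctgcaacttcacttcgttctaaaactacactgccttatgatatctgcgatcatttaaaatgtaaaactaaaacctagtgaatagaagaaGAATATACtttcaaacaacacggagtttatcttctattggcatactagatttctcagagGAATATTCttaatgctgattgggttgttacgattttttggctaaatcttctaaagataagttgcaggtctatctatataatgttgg
PHT1;7 (chr3:20250949-20251198, minus strand): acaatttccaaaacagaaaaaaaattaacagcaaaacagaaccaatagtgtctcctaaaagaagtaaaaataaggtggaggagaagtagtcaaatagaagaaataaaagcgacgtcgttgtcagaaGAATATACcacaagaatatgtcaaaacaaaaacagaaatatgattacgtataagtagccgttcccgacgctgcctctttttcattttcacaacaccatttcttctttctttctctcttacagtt
PHT1;2 (chr5:17415448-17415697, plus strand): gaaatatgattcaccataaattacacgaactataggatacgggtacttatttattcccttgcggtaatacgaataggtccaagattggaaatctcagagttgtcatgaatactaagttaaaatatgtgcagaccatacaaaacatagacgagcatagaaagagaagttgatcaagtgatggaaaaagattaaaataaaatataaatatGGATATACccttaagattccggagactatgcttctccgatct
AT5G17340 (chr5:5716269-5716518, minus strand): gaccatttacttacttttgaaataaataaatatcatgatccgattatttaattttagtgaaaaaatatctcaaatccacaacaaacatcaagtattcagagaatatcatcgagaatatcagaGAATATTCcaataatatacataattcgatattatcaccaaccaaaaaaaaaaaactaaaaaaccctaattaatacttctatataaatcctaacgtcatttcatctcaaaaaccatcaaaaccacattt
SPX3, PAP14 and GDPD6 have a pair of elements each and the other 6 genes 1 each. Those of SPX3 begin 213 and 90 bases before the start, and those of PAP14 at 141 and 104. In PHT1;2 the single element, GGATATAC, begins 42 bases before the start. PAP5 (GAATATAC, 193 bases before the start) was a further lower phosphatase gene with the element. SPX1 had GGATATTC, beginning at base 23 of the RefSeq transcript but 68 bases before the start in the authors' table, and GAATATTC 735 bases before the RefSeq start. IPS1 had no match in the window but GCATATTC at 582 and again at 548 bases before its start, PECP1 had GAATATTC at 757 and 362, and SQD2 had GAATATTC at 340. The lower phosphate genes MGD3 and PHT1;9 had no match in the window or in the 1000 bases before the start. Nor did PHR1 itself or BAT1, a strongly lower gene in no phosphate list. All sequences shown above hold the element.

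Among the 44 lower genes with intervals apart, 17 held the element in the window, 38.6% (exact binomial 95% interval 24.4% to 54.5%). Among the 84 higher genes with intervals apart and a RefSeq start, 3 held it, 3.57% (0.743% to 10.1%), and among all 20242 compared genes with a RefSeq start 1298 held it, 6.41%. With the window placed at the starts in the authors' table, chosen after seeing the data, the shares were 38.6% for lower genes, 3.57% for higher genes and 5.55% for all. For the higher genes the order depended on the window: in 500 bases before the start they held it in 15.5% and all genes in 10.9%, and in 1000 bases in 21.4% and 20.6%. The 3 higher genes with the element were NDB4, GSTU11 and AT2G04070. The share was 10 of 15 for the lower genes in the phosphate lists and 7 of 29 for the lower genes in none of them. Those 7 were MRD1, AT5G17340, AT1G21529, AT3G43110, LEA7, AT1G19200 and AT1G23110. Of the 77 phosphate list members with a RefSeq start that were not 2-fold lower, 23 held the element as well, 29.9%. Most genes with the element were not 2-fold lower: the 1298 genes with it had a median difference of -0.03, with 25 lower and 11 higher. The 18944 genes without it had a median of -0.0005, with 83 2-fold lower and 138 higher. Of all genes compared, 0.576% were 2-fold lower and 0.773% higher. The 2-fold lower genes were thus a larger share of the genes with the element, which was not tested. Intervals here cover counting error over genes, which are not independent samples. A match is only a string in the window and does not show binding.

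**Figure D2:**
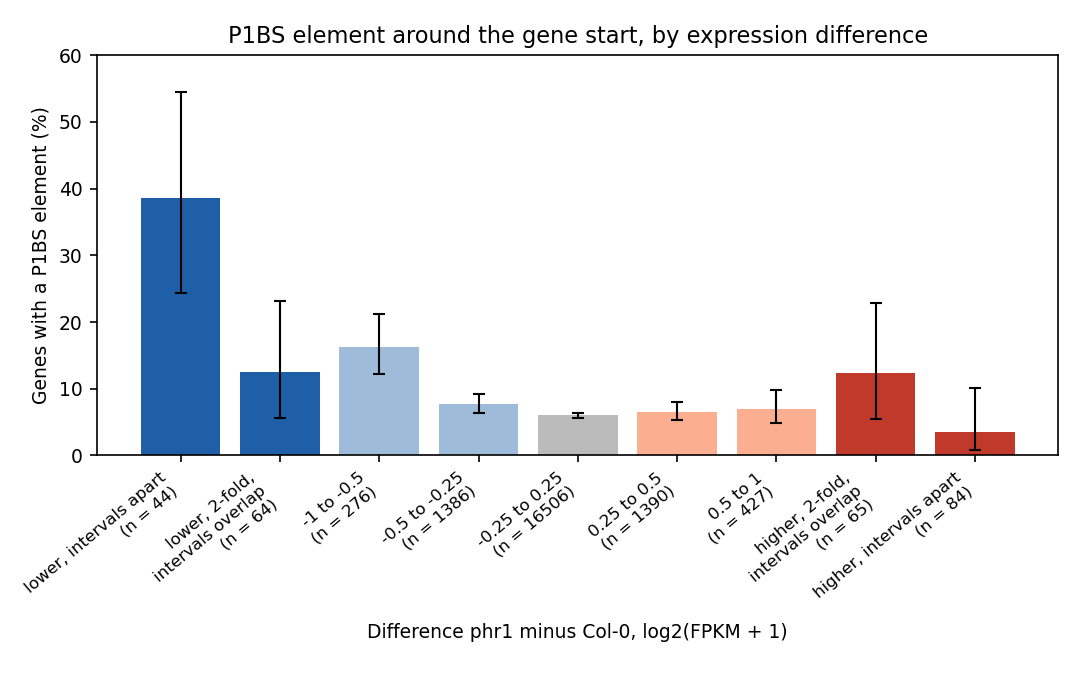
Bars give the percentage of genes with a P1BS element between 250 bases before and 50 bases after the gene start, by class of the difference phr1 minus Col-0 in log2(FPKM + 1), and lines give exact binomial 95% intervals. The number of genes is under each class. The share was 38.6% in the lower genes with intervals apart, 16.3% in genes between -1 and -0.5, 6.0% in the 16506 genes between -0.25 and 0.25, and 3.57% in the higher genes with intervals apart, but 12.5% in the lower and 12.3% in the higher 2-fold genes whose intervals overlap.

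Regulators of the phosphate response differed from each other. SPX3, one of the proteins that hold PHR1 back, stood at 25.5 FPKM in phr1 and 101.5 in Col-0, and at 27.1 in hho2phr1 and 87.0 in hho2-1. SPX1, its relative with the same role, stood at 180 and 444 FPKM in phr1 and Col-0, and at 179 and 456 in hho2phr1 and hho2-1. For both, the libraries with the phr1 allele lay below both others, with differences of -1.95 and -1.30. SPX2 was less far apart, at 61.5 FPKM in phr1 and 89.2 in Col-0 (-0.53, intervals overlapping), and SPX4, which sits in the same family, was at 15.9 and 15.2 FPKM. IPS1, a noncoding RNA that sequesters miR399, stood at 242 FPKM in phr1 and 544 in Col-0, and at 145 in hho2phr1 and 384 in hho2-1. Its homologue AT4 did not follow it, at 2120 FPKM in phr1 and 1959 in Col-0, and at 1560 in hho2phr1 and 1514 in hho2-1. PHO2, the ubiquitin conjugase whose transcript miR399 targets, was at 82.2 and 77.1 FPKM in phr1 and Col-0, and NLA, a ubiquitin ligase for phosphate transporters, at 26.6 and 30.6 FPKM on an interval shared with another gene. Precursors of miR399 were seen at few fragments. MIR399D was listed at 0 in phr1 and hho2phr1, against 35.1 FPKM in Col-0 and 37.5 in hho2-1, and MIR399B at 0 in phr1 and hho2phr1, against 6.54 and 14.0 FPKM in Col-0 and hho2-1. The authors' lower bound was 0 for both precursors in each of the 4 libraries, so neither has intervals apart.

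The 23 phosphate transporters compared had a median of -0.03, near that of all genes, with 16 below and 7 above Col-0. The 3 that were 2-fold lower with intervals apart, against 0.217% of all genes, were plasma membrane symporters of the PHT1 family. PHT1;2 stood at 4.90 FPKM in phr1 and 11.2 in Col-0, and at 2.44 in hho2phr1 and 10.99 in hho2-1. PHT1;9, which is expressed in roots, stood at 1.42 and 4.31 FPKM in phr1 and Col-0, and at 0.840 and 3.15 in hho2phr1 and hho2-1. PHT1;7 was barely detected in phr1, at 0.018 FPKM, against 1.34 in Col-0, and was at 0.170 in hho2phr1 and 1.84 in hho2-1. In each, both libraries with the phr1 allele lay below both others (23.7% of all genes), though their call fixed part of this order. All 3 were minor members by level. The abundant family members differed little: PHT1;1 stood at 80.3 FPKM in phr1 and 96.4 in Col-0, and PHT1;4 at 149 and 145. PHT1;1, PHT1;2 and PHT1;3 are near-identical in sequence, so how the authors' tool shared fragments among them bears on each value, and PHT1;3 was at 0 in phr1 and 0.0153 FPKM in Col-0. PHO1, which loads phosphate into the xylem, was at 113 FPKM in phr1 and 115 in Col-0, whereas its relative PHO1;H1 was at 15.8 and 26.9 with intervals apart (-0.73). PHF1, needed for PHT1 proteins to leave the endoplasmic reticulum, was at 42.4 FPKM in phr1 and 49.0 in Col-0. Of 5 glycerol-3-phosphate permeases none reached 2-fold, and G3Pp3 had the lowest difference, -0.70, at 2.13 FPKM in phr1 and 4.07 in Col-0.

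The 23 purple acid phosphatases had a median of -0.28, with 19 below and 4 above Col-0. Of these 23, 4 were 2-fold lower with intervals apart, against 0.217% of all genes. These enzymes release phosphate from organic esters inside and outside the cell. PAP14 stood at 0.746 FPKM in phr1 and 11.3 in Col-0, and at 1.39 in hho2phr1 and 9.16 in hho2-1, and its difference of -2.82 was the lowest of any gene with an interval of its own and intervals apart. PAP5 stood at 0.127 FPKM in phr1 and 2.17 in Col-0, and at 0.148 and 2.14 in hho2phr1 and hho2-1. PAP23 stood at 0.323 FPKM in phr1 and 3.16 in Col-0, and at 0.754 and 2.14 in hho2phr1 and hho2-1. In all of these the libraries with the phr1 allele lay below both others, as they did for PAP24, at 1.55 FPKM in phr1 and 5.60 in Col-0, with 2.84 in hho2phr1 and 5.89 in hho2-1. PAP22 and PAP25 had intervals apart at smaller differences, -0.99 and -0.87. The phosphatases known best as secreted or vacuolar enzymes of starved plants were nearer to equal. PAP12 was at 91.3 FPKM in phr1 and 120 in Col-0, PAP10 at 24.8 and 30.4, and PAP26 at 153 and 148. PAP17, on a shared interval, was at 128 FPKM in phr1 and 149 in Col-0. None of the 4 lower members exceeded 11.3 FPKM in Col-0.

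PECP1 and PS2 (AT1G73010) encode related phosphatases that act on phosphocholine and phosphoethanolamine. PECP1 stood at 130 FPKM in phr1 and 279 in Col-0, and at 149 in hho2phr1 and 287 in hho2-1. PS2 stood at 219 FPKM in phr1 and 378 in Col-0 (-0.78, intervals apart), and at 237 and 385 in hho2phr1 and hho2-1. The ribonuclease RNS1 was at 25.1 FPKM in phr1 and 27.2 in Col-0.

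Membrane lipid remodelling had a median of -0.27, with 23 of 26 genes below Col-0 and 3 above. Of these 26, 4 were 2-fold lower with intervals apart, against 0.217% of all genes. NPC4, a phospholipase C that starts the release of phosphate from membrane lipids, stood at 9.59 FPKM in phr1 and 31.7 in Col-0, and at 11.8 in hho2phr1 and 35.0 in hho2-1. SQD2, the last enzyme of sulfolipid synthesis, stood at 78.5 FPKM in phr1 and 185 in Col-0, and at 91.3 and 173 in hho2phr1 and hho2-1. MGD3, a starvation form of the galactolipid synthase, stood at 36.3 FPKM in phr1 and 74.8 in Col-0, and at 37.1 and 69.9 in hho2phr1 and hho2-1. Each of the 3 was lower in both libraries with the phr1 allele (23.7% of all genes), though their call fixed part of this order. GDPD6, a glycerophosphodiesterase, was near the detection limit with the phr1 allele, at 0.072 FPKM in phr1 and 0.070 in hho2phr1, against 2.01 in Col-0 and 1.81 in hho2-1. GDPD3 (-0.98) and the phospholipase D gene PLDP2 (-0.68) had intervals apart below 2-fold. SQD1, which makes the sulfolipid head group, did not differ to that extent, at 84.0 FPKM in phr1 and 89.6 in Col-0. The galactolipid synthases that serve the chloroplast in fed plants did not either, with MGD1 at 25.7 and 26.0 and DGD1 at 33.1 and 37.8.

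**Figure D3:**
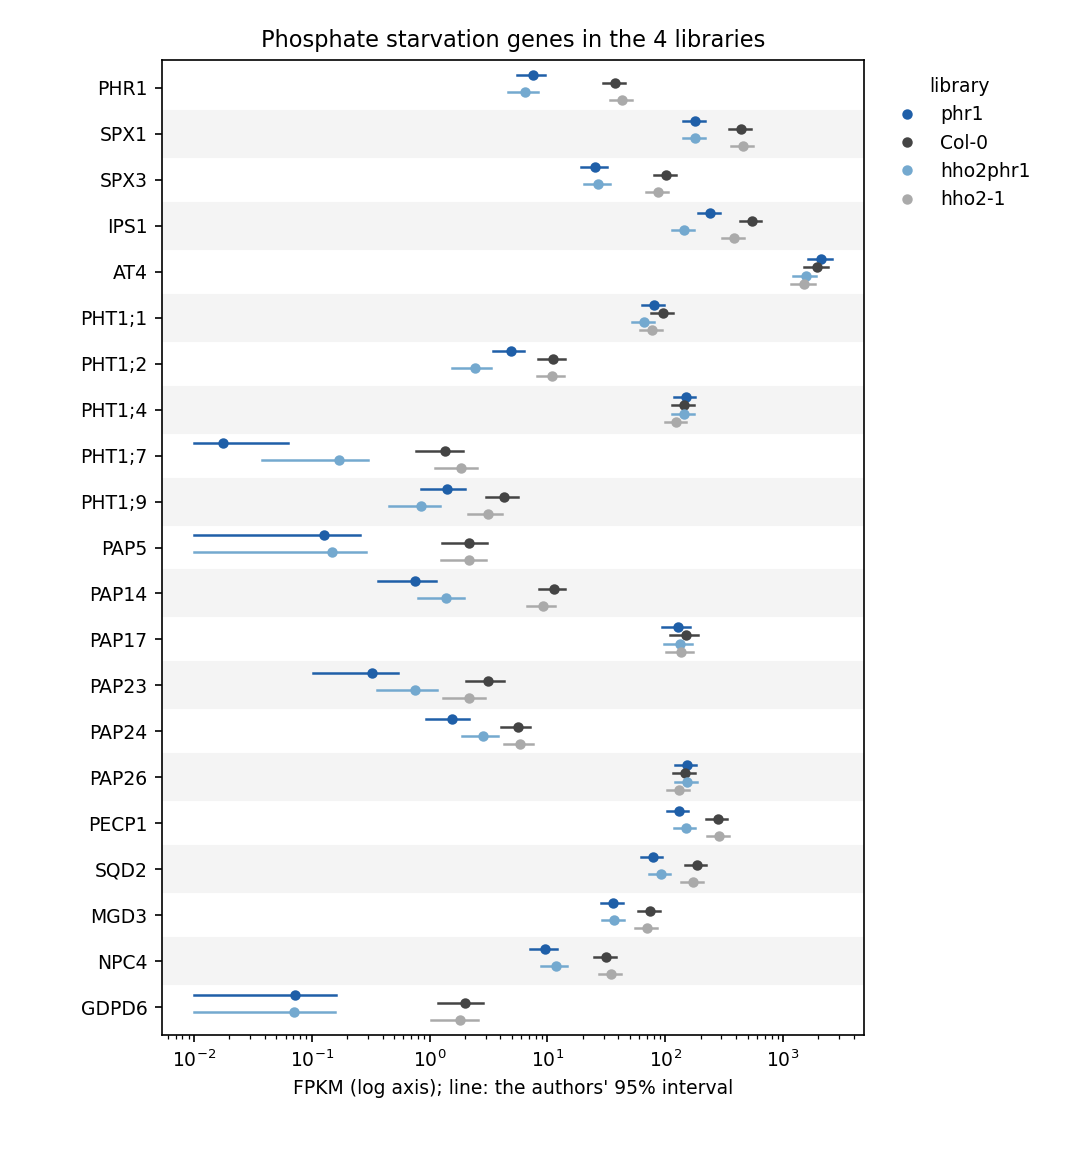
Each row is 1 gene, points are its FPKM in the 4 libraries on a log axis and lines are the authors' 95% intervals, which are drawn from 0.01 FPKM where they reach lower. PHR1, SPX1, SPX3, IPS1, PECP1, SQD2, MGD3, NPC4 and the weakly expressed PHT1;2, PHT1;7, PHT1;9, PAP5, PAP14, PAP23, PAP24 and GDPD6 are lower in phr1 than in Col-0 with intervals apart. AT4, PHT1;1, PHT1;4, PAP17 and PAP26 have overlapping intervals.

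Other lists tied to phosphate held no 2-fold gene, which at 1.35% of all genes is near the background for lists of this size. Of 12 genes for inositol phosphates, which signal phosphate status to SPX proteins, 6 were above and 6 below Col-0. Of 11 genes for PEP carboxylase and glycolytic bypass steps, 3 were above and 8 below, with PPCK1, a kinase of PEP carboxylase, at 133 FPKM in phr1 and 158 in Col-0. Of 18 genes of root tip phosphate sensing, 11 were above and 7 below, with a median of 0.03, or -0.03 with both libraries scaled to the same sum of FPKM. ALMT1, a malate channel of that pathway, was at 36.5 FPKM in phr1 and 37.7 in Col-0, and the oxidase gene LPR1 at 1.89 and 1.88.

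Outside the phosphate lists, 29 genes were lower with intervals apart, PHR1 being 1 of them. BAT1 (AT4G31910), an acyltransferase that inactivates brassinosteroids, stood at 12.9 FPKM in phr1 and 95.5 in Col-0, and at 17.5 in hho2phr1 and 81.3 in hho2-1. AT5G17340, annotated as a putative membrane lipoprotein, stood at 4.25 FPKM in phr1 and 25.7 in Col-0, and at 3.57 and 22.7 in hho2phr1 and hho2-1. OCT1, a carnitine transporter whose interval is shared, stood at 19.7 FPKM in phr1 and 67.5 in Col-0, and at 19.2 and 57.1 in hho2phr1 and hho2-1. These 3, taken from the extremes of the comparison, were lower in both libraries with the phr1 allele (23.7% of all genes). Their choice fixed part of this order. SAG12, a protease of senescing leaves, was high in Col-0 only: it stood at 1.04 FPKM in phr1 and 6.25 in Col-0, but at 0.421 in hho2phr1 and 1.04 in hho2-1. The noncoding RNA gene AT1G21529 was at 2.57 FPKM in phr1 and 8.84 in Col-0, and AT1G53610, an uncharacterised gene, at 14.6 and 37.3. AT2G45135, a RING protein gene 971 bases from SPX3, was at 4.96 FPKM in phr1 and 13.4 in Col-0, and the neighbours AT5G36130 and CYP716A2 were also lower together. AT2G45135, AT5G36130 and OCT1 were picked after their values were seen, as were the higher genes named below for their place beside a called gene.

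In the list of camalexin and indolic defence compounds the median was 0.34, and 14 of 19 genes lay above Col-0 and 5 below. With intervals apart, 5 were 2-fold higher, against 0.423% of all genes. CYP71A13, which converts indole acetaldoxime on the way to camalexin, stood at 32.9 FPKM in phr1 and 5.27 in Col-0, and at 21.7 in hho2phr1 and 7.71 in hho2-1. Its tandem neighbour and close paralogue CYP71A12 stood at 82.0 FPKM in phr1 and 38.0 in Col-0, and at 81.7 and 38.6 in hho2phr1 and hho2-1. CYP82C2, a hydroxylase of a branch that yields a cyanogenic indole compound, stood at 35.4 FPKM in phr1 and 4.84 in Col-0, and at 32.1 and 4.34 in hho2phr1 and hho2-1. For each of these the libraries with the phr1 allele lay above both others (23.5% of all genes), though their call fixed part of this order. FOX1, an oxidase of the same branch, was at 31.1 FPKM in phr1 and 12.7 in Col-0, and PAD3, the last enzyme of camalexin synthesis, at 31.5 and 15.8, just short of 2-fold on this scale (0.95, intervals apart). PAD3 was less apart in the other pair, at 32.4 FPKM in hho2phr1 and 24.9 in hho2-1. The step before the branch, CYP79B2, was at 165 FPKM in phr1 and 113 in Col-0, with overlapping intervals, and the regulators WRKY33 and MYB51 differed by 0.17 and 0.18.

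Of the salicylate genes, 17 of 24 lay above Col-0 and 7 below, the median being 0.14. With intervals apart, 2 were 2-fold higher, against 0.423% of all genes. PR1, a secreted antimicrobial protein and the usual salicylate marker, stood at 111 FPKM in phr1 and 20.8 in Col-0, and at 157 in hho2phr1 and 10.5 in hho2-1. WRKY62, a transcription factor, stood at 3.90 FPKM in phr1 and 0.539 in Col-0, and at 2.48 and 0.375 in hho2phr1 and hho2-1. Both were higher in each library with the phr1 allele (23.5% of all genes), though their call fixed part of this order. Other defence markers did not reach a 2-fold difference. PR2 was at 6.20 FPKM in phr1 and 9.16 in Col-0, PR5 at 8.35 and 8.74, and ICS1, the main salicylate synthesis gene, at 20.6 and 15.1. Of 62 WRKY genes, 41 were above and 21 below. With intervals apart, 5 were 2-fold higher, against 0.423% of all genes, and none lower. The 5 were WRKY62, WRKY50, WRKY30, WRKY46 and ABO3 (WRKY63). None of 28 jasmonate genes and none of 26 ethylene genes (17 above, 9 below) was 2-fold different, which at 1.35% of all genes is near the background. Of 21 brassinosteroid genes, 9 were above and 12 below, with BAT1 the 1 lower and UGT73C5 the 1 higher gene that had intervals apart. The jasmonate list had 20 above and 8 below, and LOX4, a lipoxygenase of jasmonate synthesis, was at 7.05 FPKM in phr1 and 3.39 in Col-0 with intervals apart (0.88). JRG21, annotated as a jasmonate-regulated gene, is in no list and was 2-fold higher with intervals apart. It stood at 22.7 FPKM in phr1 and 10.2 in Col-0, and at 25.3 in hho2phr1 and 11.4 in hho2-1.

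Some members of the glutathione transferase, UGT and cytochrome P450 families were called, while the family medians lay near 0. Over all genes, 0.423% were 2-fold higher and 0.217% 2-fold lower with intervals apart. Of 38 glutathione transferases of the tau and phi classes, 4 were 2-fold higher with intervals apart and none lower, while the family's median was 0.03. GSTF6, which takes part in camalexin synthesis, stood at 475 FPKM in phr1 and 206 in Col-0, and at 462 in hho2phr1 and 220 in hho2-1. Its neighbour GSTF7 was at 498 FPKM in phr1 and 222 in Col-0, and the neighbours GSTU11 and GSTU12 were at 13.0 and 9.05 FPKM in phr1, against 5.15 and 3.49 in Col-0. These pairs are close paralogues, so part of each value depends on how fragments were divided. Of 86 UGT glycosyltransferases, with a median of 0.01, 4 were 2-fold higher with intervals apart, among them UGT73C5, which adds glucose to brassinosteroids and to a fungal toxin, at 36.2 FPKM in phr1 and 13.4 in Col-0, and at 40.1 in hho2phr1 and 16.3 in hho2-1. AT1G05675, beside UGT74E2, was at 7.18 FPKM in phr1 and 1.28 in Col-0. Among carriers, which were in no list, the efflux gene AT2G04050 stood at 36.3 FPKM in phr1 and 6.61 in Col-0, and at 38.8 and 6.87 in hho2phr1 and hho2-1. The nearby carrier gene AT2G04070 stood at 3.65 FPKM in phr1 and 0.205 in Col-0. ABCG40, a transporter of the pleiotropic drug resistance type, stood at 16.9 FPKM in phr1 and 3.83 in Col-0, and at 14.7 and 6.73 in hho2phr1 and hho2-1. Of 160 cytochrome P450 genes with a CYP symbol, with a median of -0.03, 4 were higher and 1 lower with intervals apart. The highest after those named was CYP71B22, at 35.7 FPKM in phr1 and 8.07 in Col-0. AT5G36130, annotated as a cytochrome P450 but without such a symbol, was a further lower gene with intervals apart.

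**Figure D4:**
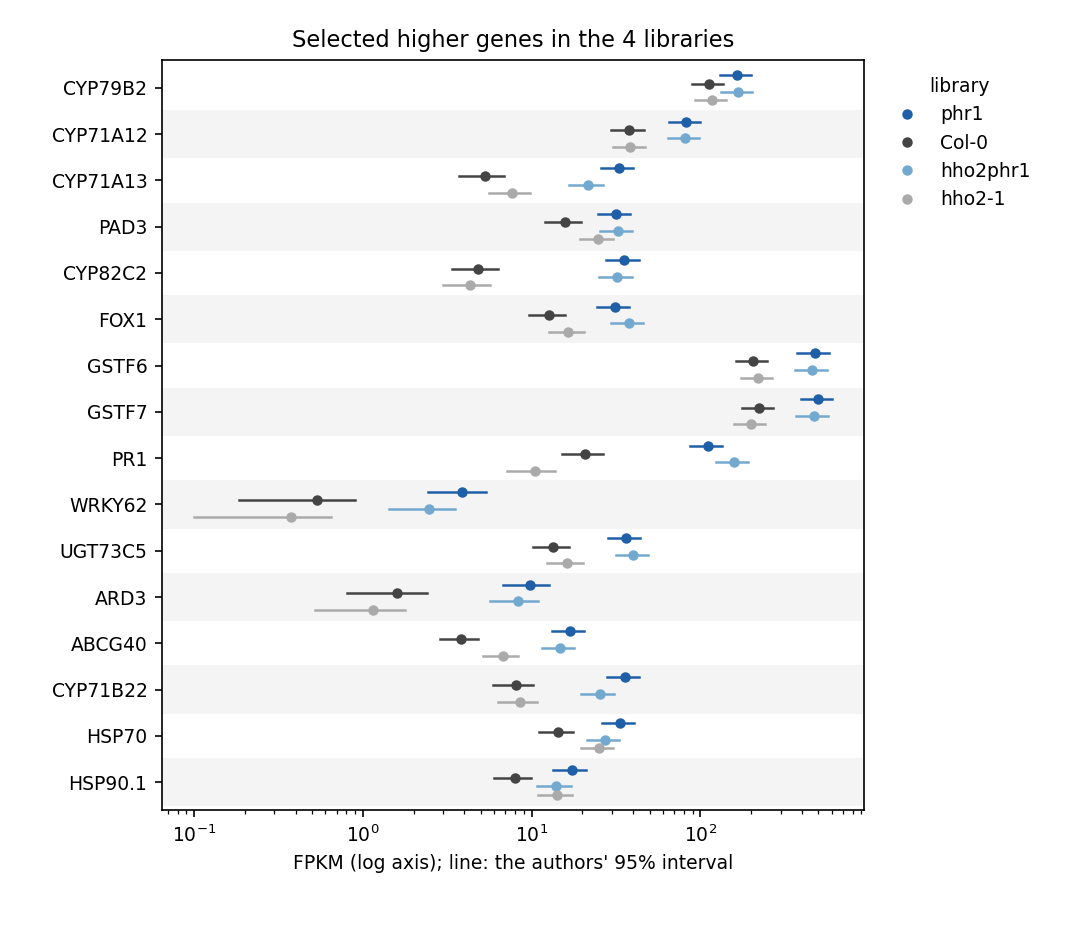
Each row is 1 gene, points are its FPKM in the 4 libraries on a log axis and lines are the authors' 95% intervals, drawn from 0.1 FPKM where they reach lower. All genes shown but CYP79B2 have intervals apart between phr1 and Col-0. PR1, CYP82C2, GSTF6 and ARD3 are high in both libraries with the phr1 allele, while HSP70 and HSP90.1 have overlapping intervals in hho2phr1 and hho2-1.

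AOX1D, NDB4 and AT2G21640 were 3 further called genes, chosen after their values were seen and from no list. AOX1D, an alternative oxidase that bypasses the cytochrome pathway, stood at 7.81 FPKM in phr1 and 3.21 in Col-0, and at 15.7 in hho2phr1 and 3.69 in hho2-1. NDB4, an alternative NAD(P)H dehydrogenase, stood at 1.90 FPKM in phr1 and 0.427 in Col-0, and at 2.11 and 0.374 in hho2phr1 and hho2-1. AT2G21640, annotated as a marker of oxidative stress, stood at 14.7 FPKM in phr1 and 3.45 in Col-0, and at 16.8 and 4.02 in hho2phr1 and hho2-1. Each was higher in both libraries with the phr1 allele (23.5% of all genes), though their choice fixed part of this order.

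ARD3, an acireductone dioxygenase of methionine salvage, was the 1 called gene of 13 in its list (6 above, 7 below), at 9.78 FPKM in phr1 and 1.60 in Col-0, and at 8.33 in hho2phr1 and 1.15 in hho2-1. Its paralogues ARD1, ARD2 and ARD4 were abundant and near equal, with ARD1 at 81.2 FPKM in phr1 and 79.8 in Col-0. AT2G41730, annotated as a calcium-binding site protein, stood at 85.3 FPKM in phr1 and 22.4 in Col-0. CP1 (AT4G36880), a cysteine proteinase, was at 11.96 FPKM in phr1 and 2.16 in Col-0, AT4G21730 at 18.6 and 3.35, and AT5G24640 at 11.6 and 2.35. AT1G21525, beside AT1G21520, was at 48.1 FPKM in phr1 and 6.26 in Col-0. In single families, PER4 was the 1 class III peroxidase of 50 that was higher with intervals apart, ERF71 the 1 of 47 ERF genes, PNP-A the 1 of 25 expansin-type genes and ARCK1 the 1 of 36 receptor kinases of the CRK family. Of all genes, 0.423% were called in this way.

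Several called genes sat near each other on the chromosome. With the compared genes in order of position, 11 neighbouring pairs were both higher with intervals apart, covering 20 genes. There were 3 such pairs lower, covering 6 genes. Genes below the FPKM limit were passed over, so other genes can lie between the members of a pair. Of all genes, 0.423% were higher and 0.217% lower with intervals apart, and the number of pairs was not tested. The higher pairs included CYP71A12 with CYP71A13, GSTF7 with GSTF6, GSTU12 with GSTU11 and FOX1 with AT1G26390. Among the higher pairs, PP2-B13 with AT1G56242 had the same interval, and AT2G04050 with AT2G04070 lay 14485 bases apart. Of the lower pairs, SPX3 with AT2G45135 had separate intervals and MRD1 with HEI10 the same interval.

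All 16 heat shock genes compared lay above Col-0 and their median was 0.23. With intervals apart, 3 were 2-fold higher, against 0.423% of all genes. In hho2phr1 against hho2-1, 11 were above 0 and 5 below, with a median of 0.08 and 1 gene 2-fold higher, and the difference between the pairs was not tested. HSP70, a chaperone, stood at 33.4 FPKM in phr1 and 14.4 in Col-0, but at 27.1 in hho2phr1 and 25.1 in hho2-1. HSP90.1, another chaperone, stood at 17.3 and 7.999 FPKM in phr1 and Col-0, and at 13.9 and 14.1 in hho2phr1 and hho2-1. HSP23.6, a small mitochondrial chaperone, stood at 1.93 FPKM in phr1 and 0.179 in Col-0, and at 0.600 and 0.256 in hho2phr1 and hho2-1. For the first 2 genes Col-0 was the low library and the other 3 lay above it. Of 20 genes of the unfolded protein response, 15 were above and 5 below Col-0, with a median of 0.13. None was 2-fold different, against 1.35% of all genes. In hho2phr1 against hho2-1, 8 of them were above 0 and 12 below, with a median of -0.14. ERDJ3A was at 5.54 FPKM in phr1 and 2.62 in Col-0 with intervals apart (0.85).

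The iron, zinc, nitrate and sulfur lists held no 2-fold gene, again near the background of 1.35% for their size. The 19 sulfur genes had a median of -0.41, 18 of them below Col-0 and 1 above. BGLU30 was at 31.2 FPKM in phr1 and 54.4 in Col-0 and BGLU28 at 3.01 and 5.90, both glucosidases of sulfur-starved plants and both with intervals apart. The sulfate transporters SULTR1;2 and SULTR4;1 were near equal, with SULTR1;2 at 39.6 FPKM in phr1 and 40.3 in Col-0. In the other pair the sulfur median was -0.11. Glucosinolate synthesis had 13 of 18 genes below Col-0 and a median of -0.28, and CYP79F1, which makes aliphatic glucosinolate precursors, was at 19.3 FPKM in phr1 and 33.5 in Col-0, and at 17.1 in hho2phr1 and 35.9 in hho2-1. The median was 0.06 for iron genes (16 of 21 above 0), 0.09 for zinc genes (7 of 8) and -0.05 for nitrate genes (9 of 21), and that of iron genes was -0.02 once both libraries were scaled to the same sum. NRT2.1, the high-affinity nitrate transporter, was at 2.09 FPKM in phr1 and 4.20 in Col-0 with intervals apart (-0.75). Anthocyanin genes (8 of 12 below) and root hair genes (12 of 20 below) had medians of -0.09 and -0.06. The 14 reference genes had 8 above and 6 below and a median of 0.01, or -0.08 after that scaling, with ACT2 at 653 FPKM in phr1 and 688 in Col-0.

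In several families no gene was called, against 1.35% of all genes. None of 71 NAC genes, 84 MYB genes, 68 bHLH genes, 30 Aux/IAA genes, 30 aquaporins, 202 ribosomal protein genes, 17 EXO70 genes or 39 receptor-like protein genes was 2-fold different. Families were matched by gene symbol, so a member without such a symbol is left out. AT3G12910, annotated as a NAC domain regulator, is such a gene. It stood at 2.90 FPKM in phr1 and 0.638 in Col-0 with intervals apart, and at 1.60 in hho2phr1 and 1.48 in hho2-1. MYB genes had a median of -0.08, with 59 of 84 below Col-0. Of 62 microRNA precursors, 13 were 2-fold higher and 14 lower and none of them had intervals apart. Of the 10 genes with the highest FPKM in Col-0, MT1A stood at 0.48 and EXT3, an extensin of the cell wall, at 0.59, with overlapping intervals, and the other 8 differed by between -0.31 and 0.22.

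Seed storage transcripts were lower in phr1, and their levels varied among all the libraries. Of 19 seed storage and maturation markers, 6 were compared, each below Col-0. Of these, 5 were 2-fold lower and 3 had intervals apart, against 0.576% and 0.217% of all genes. The whole list summed to 7.42 FPKM in phr1 and 22.6 in Col-0, and to 106 in hho2phr1 and 78.3 in hho2-1, and 5 markers were at 0 in phr1 and 1 in Col-0. CRU3, a cruciferin, stood at 1.02 FPKM in phr1 and 4.84 in Col-0, but at 40.1 in hho2phr1 and 28.7 in hho2-1, and lies near PHR1 on chromosome 4. It was the 1 called gene among the 20 compared genes nearest to PHR1. The seed proteins CRA1 and OLEO2 were likewise lower in phr1 than in Col-0 and lowest there of all libraries. The part of seed material in the lower genes was not tested. Flower and pollen markers were nearly absent, with 2 of 9 compared and sums of 9.07 FPKM in phr1 and 7.13 in Col-0. The 21 photosynthesis markers had a median of -0.13, with 19 below Col-0, where the other pair gave 0.25.

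The hho2phr1 and hho2-1 libraries share no library with phr1 and Col-0, so they give the only other measurement of the phr1 allele, in a background that also carries hho2-1. Of the 86 genes higher in phr1 with intervals apart, 80 were also higher in hho2phr1 than in hho2-1, against 50.6% of all 20323 genes, and 53 were 2-fold higher, against 1.11% of all genes. Of the 44 lower genes, 38 were also lower, against 49.1%, and 21 were 2-fold lower, against 0.546%. All 53 and all 21 again had intervals apart. All 15 lower genes of the phosphate lists were lower in hho2phr1, 10 of them 2-fold. Of the other 29 lower genes, 23 were lower and 11 of them 2-fold. The median of the higher genes was 1.34 in phr1 against Col-0 and 1.16 in hho2phr1 against hho2-1, and that of the lower genes was -1.25 and -0.96. Of 71 genes 2-fold higher without intervals apart, 37 were higher in hho2phr1, 19 were lower and 15 differed by exactly 0. Of 73 such lower genes, 26 were lower, 27 were higher and 20 differed by exactly 0.

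**Figure D5:**
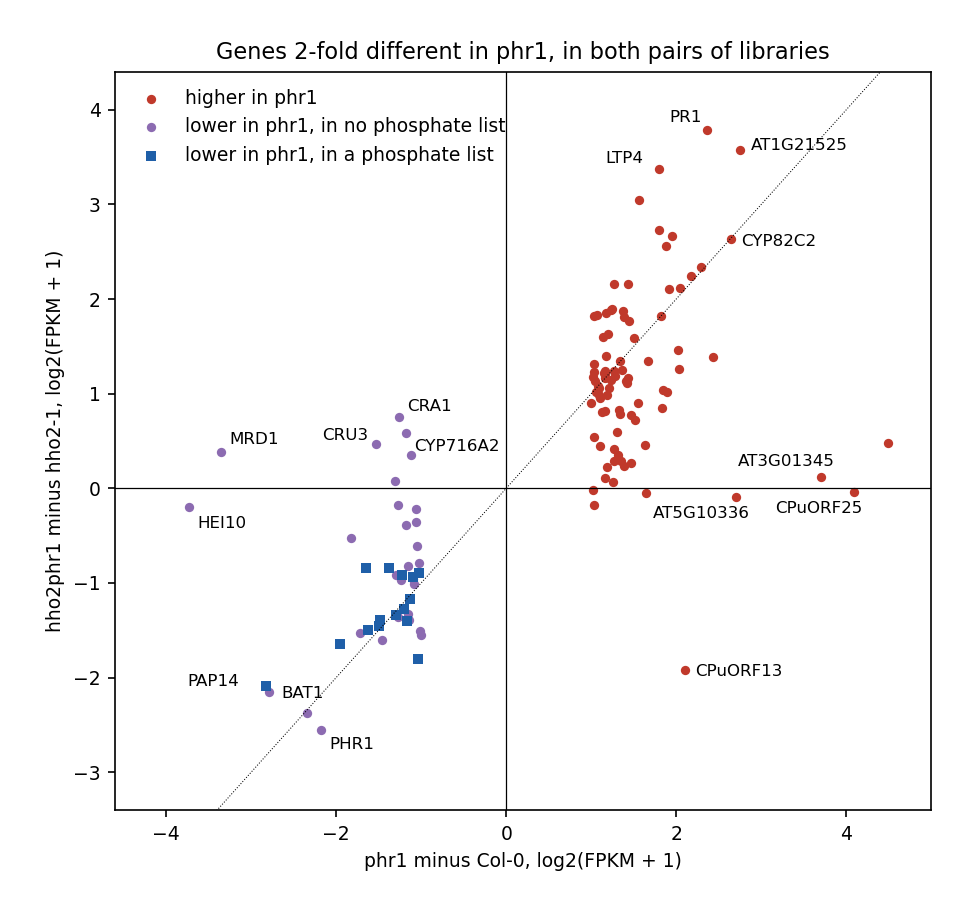
Each point is 1 of the 130 genes with a 2-fold difference and intervals apart in phr1 against Col-0, with that difference on the horizontal axis and the difference hho2phr1 minus hho2-1 on the vertical axis, both in log2(FPKM + 1). The dotted line marks equal differences. The 15 blue squares, genes of the phosphate lists, all lie below 0 on both axes, while the 12 points on opposite sides of 0 include CRU3, CRA1 and CPuORF13.

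Some of the largest differences were seen in 1 pair only. AT3G01345, of unknown function, stood at 15.6 FPKM in phr1 and 0.281 in Col-0, and at 0.331 in hho2phr1 and 0.221 in hho2-1, so that phr1 was high alone. HEI10 and MRD1, which share an interval, were high in Col-0 alone: HEI10, a gene of meiotic crossing over, stood at 1.40 FPKM in phr1 and 30.9 in Col-0, and at 1.38 in hho2phr1 and 1.73 in hho2-1. WRKY30 was at 3.10 FPKM in phr1 and 0.575 in Col-0, but at 1.36 and 1.00 in hho2phr1 and hho2-1. In the other direction, LTP4, a lipid transfer protein, was further apart in the second pair, at 9.98 FPKM in phr1 and 2.15 in Col-0, and at 21.3 in hho2phr1 and 1.15 in hho2-1, and AT4G12490, of the same protein class, behaved alike, at 21.8 and 6.76 FPKM in phr1 and Col-0, and at 38.8 and 3.82 in hho2phr1 and hho2-1. Whether the differences of the 2 pairs differ from each other was not tested, as each rests on 1 library per genotype. HEI10, MRD1, LTP4 and AT4G12490 were chosen after their values were seen.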

How the data were processed

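Poly(A)+ RNA of 4 genotypes was sequenced, 1 library each, from ScriptSeq v2 libraries per the labels' protocols. Reads were handled with TopHat2 2.0.11 and Cuffdiff 2.2.1 on TAIR10, per the submitters' processing notes, and the values used are the authors' deposited FPKM and their 95% interval per gene and library, with a status column, per the file headers. The annotation release, the treatment of reads that map to several places and the scaling between libraries are not given in the sources used here.

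Columns were matched to samples by name (WT to Col-0, dbl to hho2phr1). Genes with FPKM of at least 1 in phr1 or Col-0 were compared as log2((phr1 + 1)/(Col-0 + 1)), where the pseudocount of 1 understates the change of low genes, and 6 of them have a FAIL status in either library. Of these genes, 3387 share an interval with another gene and 143 have a transcript shorter than 200 nucleotides. The library sizes came from the spacing of low FPKM values, 99.6% to 99.8% of which were whole fragments within 0.1. The half-width of the authors' interval in Col-0 was, at the median gene, 21.1% of its FPKM for means of at least 100 FPKM and 43.6% for means below 3 FPKM.

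There were 26 gene lists, 4 lists of tissue markers and 18 families. Families were taken by gene symbol, so members without a matching symbol are not in them. The members and lists were chosen with earlier results of these data known. Named genes are PHR1, list members 2-fold different with intervals apart, defining members of the phosphate pathway, the 15 highest and 15 lowest genes with intervals apart, extremes of families and the 10 most abundant genes. Genes named otherwise were chosen after their values were seen. Promoters were read from the RefSeq TAIR10.1 genome with pysam 0.24.0; 20242 of the compared genes had a locus in that annotation, of which 914 had the same start and end in the authors' table. Tables were made with Python 3.11.15, pandas 2.3.3, NumPy 2.4.6 and SciPy 1.17.1, figures with matplotlib 3.10.9, and the comparison script was tested on simulated data.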

Additional observations from a re-analysis of the deposited data

Results flagged for a closer look

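Of the 130 genes 2-fold different with intervals apart in phr1 against Col-0, 12 had the opposite sign in hho2phr1 against hho2-1. The difference between the pairs was not tested, and each pair rests on 1 library per genotype. Lower in phr1 but higher in hho2phr1 were CRA1 (0.76 in hho2phr1 minus hho2-1), CYP716A2 (0.59), CRU3 (0.47), MRD1 (0.38), AT5G36130 (0.36) and BGLU19 (0.072). Higher in phr1 but lower in hho2phr1 were CPuORF13 (-1.92), AT3G10040 (-0.18), AT5G10336 (-0.096), AT2G14247 (-0.048), CPuORF25 (-0.043) and HSP90.1 (-0.019). MRD1, BGLU19, CPuORF13 and CPuORF25 lie on intervals shared with another gene.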

How the results depend on the processing

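No paired analysis was possible because each genotype has 1 library and the labels give no replicate numbers, and for the same reason no replicate could be left out. The 157 higher genes became 257 with a pseudocount of 0.1, 56 with one of 5 and 86 with intervals apart. The 117 lower genes became 183, 45 and 44 under these, 64 with a minimum of 5 FPKM and 71 without shared intervals and short transcripts. With intervals apart, a pseudocount of 5 left 28 of 86 higher and 15 of 44 lower, and the FPKM limit of 5 left 28 lower. No gene with a 2-fold difference and intervals apart changed sign under any setting. Values near 0 did: with the same sum of FPKM, PAP26 came to -0.05, PHT1;4 to -0.05, TCTP to -0.06, and the medians of iron, reference and root tip genes to -0.02, -0.08 and -0.03. With a minimum of 5 FPKM the medians of anthocyanin, glycerol-3-phosphate permease and inositol phosphate genes came to 0.01, 0.004 and 0.02, and without shared intervals and short transcripts those of inositol phosphate and methionine salvage genes to 0.03 and 0.008. Scaling to the same sum of FPKM moved the median of all genes by -0.08 and gave 141 higher and 123 lower. That sum was 1045590 in phr1 and 983614 in Col-0, and MT1A alone held 179421 and 128832 FPKM of it. Of the 73 named genes' differences, 10 moved with a pseudocount of 0.1 and 19 with 5. The P1BS share of all genes was 5.64% in the 250 bases before the start, 5.55% with the starts in the authors' table, 1.83% for GCATATTC or GAATATTC alone, 10.9% in 500 bases and 20.6% in 1000 bases. For higher genes it was 15.5% and 21.4% in 500 and 1000 bases, and for lower genes 18.18% for the stricter strings and 65.9% in 1000 bases. The 500 and 1000 base windows, the authors' starts and the settings on genes with intervals apart were chosen after seeing the data. The cause of these changes was not tested. Limits are the single library per genotype, the unknown organ and shared fragments of paralogues.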
